A study of Mus musculus with 2 samples.

Results

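Skeletal muscle fibres are large cells with many nuclei, and fast fibres among them contract quickly, draw on glycogen and phosphocreatine, and clear calcium rapidly with the pump Atp2a1 and the calcium buffer parvalbumin. Transcripts of such fibres were examined here in a library of sorted satellite cells, the muscle stem cells, taken after injury. The remaining fast-fibre barcodes are 519 of the 939 fibre barcodes of the activated satellite cell (ASC) library (55.3%), and 35.4% (95% interval 32.9 to 37.9) of its 1468 kept barcodes. A barcode stands for a droplet, and a unique molecular identifier (UMI) for a captured transcript. The barcodes were chosen by their own measured values in 4 steps. Fibre barcodes had at least 500 detected genes, at most 10% mitochondrial UMIs and at least 5% of their UMIs from Myf6, Myh4, Acta1, Ckm, Mylpf, Tnnt3, Tnnc2, Myh1, Pvalb and Atp2a1. The 100 richest in the slow-fibre genes Tnnt1, Tnnc1, Tnni1, Myl3, Myl2 and Myoz2 were set aside first (the slow-rich barcodes), then the 120 richest in Ankrd1, Csrp3, Hspb1, Lmcd1, Otud1 and Mybph (Ankrd1-Csrp3-rich), and then the 200 richest in Mt3, Trim63, Rrad, Gabarapl2 and Mustn1 (Mt3-Trim63-rich). Levels of these 27 genes, and every difference between the 4 classes of ASC fibre barcodes, therefore describe the choice and were not tested.

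The 2 libraries came from the tibialis anterior (TA) muscle of 8-week-old mice carrying Pax7 CreERT2/+ and Rosa26 mTmG/+, in which a Cre recombinase driven by the satellite cell gene Pax7 can switch a membrane reporter from red to green fluorescence. QSC, quiescent satellite cells, were sorted from uninjured muscle, and ASC from muscle taken 1.5 days after injection of cardiotoxin (CTX), a toxin that destroys muscle fibres. Cells of several mice were pooled for each library, and each group had 1 library. The injury and the library therefore cannot be told apart, no value has a replicate check, and no test was made on barcodes. Levels are counts per 1e6 UMIs (CPM) after summing over the barcodes of a class, and ratios are given as log2 with 95% intervals that cover counting error only.

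The remaining barcodes had from 825 to 76126 UMIs, with a median of 2892 and a total of 1805236, and a median of 1060 genes. Their mitochondrial share had a median of 0.171% and reached 6.11%. Their share from the 10 fibre genes ran from 5.05% through a median of 13.9% to 21.6%, whereas the highest share just under the limit was 4.85%. The last cuts left little room on either side, with the lowest share dropped and the highest left at 2.507% and 2.501% for the Ankrd1-Csrp3 list and at 1.191% and 1.190% for the Mt3-Trim63 list. Of the 100 slow-rich barcodes, 26 had been set aside on 1 slow-gene UMI, and 99 remaining barcodes also held 1. The fibre barcodes of QSC, 104 of 516 kept, were shallower, with a median of 1635 UMIs and a total of 214486, and had a median mitochondrial share of 0.719%. Of the 519 barcodes, 1 held 76126 UMIs and 5441 genes, 4.22% of all UMIs of the class. The libraries shared 4 barcode sequences, of which 1 was a remaining fast-fibre barcode and 0 were fibre barcodes in both.

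The fast-fibre name refers to 4 genes: Myh4, the heavy chain of the fastest myosin, Pvalb, which encodes parvalbumin, Pgam2, the muscle phosphoglycerate mutase of glycolysis, and Ankrd23, an ankyrin repeat protein of the sarcomere. In the GRCm38 assembly, Myh4 (ENSMUSG00000057003) lies at chr11:67238029-67260446 on the plus strand, Pvalb (ENSMUSG00000005716) at chr15:78191114-78206400, Pgam2 (ENSMUSG00000020475) at chr11:5801640-5803733 and Ankrd23 (ENSMUSG00000067653) at chr1:36530188-36536883, the last 3 on the minus strand. The 250 bases before the RefSeq start site are shown for 3 of these genes, because they are the genes that mark the class and have distinct muscle motifs in this window, at chr11:67237562-67237811 (plus strand) for Myh4, chr15:78206401-78206650 (minus strand) for Pvalb and chr11:5803797-5804046 (minus strand) for Pgam2. Sequences are from RefSeq on GRCm38.p6, read 5′ to 3′, and capitals mark the motif matches.

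Myh4: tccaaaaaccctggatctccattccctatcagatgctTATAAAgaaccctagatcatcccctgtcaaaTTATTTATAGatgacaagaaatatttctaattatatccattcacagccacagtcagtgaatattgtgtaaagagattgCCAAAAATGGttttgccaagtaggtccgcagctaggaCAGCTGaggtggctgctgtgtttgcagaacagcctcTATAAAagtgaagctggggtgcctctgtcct

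Pvalb: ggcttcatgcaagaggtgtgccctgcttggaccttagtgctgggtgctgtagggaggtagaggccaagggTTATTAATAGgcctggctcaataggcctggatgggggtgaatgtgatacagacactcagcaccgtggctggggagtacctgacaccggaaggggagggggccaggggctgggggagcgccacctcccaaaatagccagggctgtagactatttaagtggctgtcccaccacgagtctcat

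Pgam2: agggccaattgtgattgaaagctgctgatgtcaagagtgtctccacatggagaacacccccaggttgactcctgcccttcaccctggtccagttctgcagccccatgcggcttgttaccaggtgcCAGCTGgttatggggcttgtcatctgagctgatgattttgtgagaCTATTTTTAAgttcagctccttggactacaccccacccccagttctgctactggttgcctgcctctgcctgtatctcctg

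The motifs searched were the E-box CAGCTG, the TATAAA box on the strand of the gene, and the binding motifs named MEF2 and CArG on both strands. In Myh4, TATAAA stood at -213 to -208 and at -31 to -26 from the start, MEF2 at -182 to -173, CArG at -104 to -95 and CAGCTG at -67 to -62. Pvalb held MEF2 at -180 to -171 of the start shown and none of the motifs before its second RefSeq start, and Pgam2 held CAGCTG at -125 to -120 and MEF2 at -80 to -71. Among 32851 promoters of this length, CAGCTG was found in 13.0%, TATAAA in 7.59%, MEF2 in 2.92% and CArG in 1.47%. None of these letters stood in the windows searched for Ankrd23. The matches are a description of the sequence and not evidence of binding.

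All 4 marker genes were at their highest level in the remaining barcodes among the 4 ASC fibre classes. Myh4 and Pvalb belong to the 10 fibre genes that chose the barcodes and Pgam2 and Ankrd23 do not, but the classes were split by the same rule, so the levels describe the choice and do not test the name. Myh4 stood at 1036 CPM in the remaining barcodes, 815 in Ankrd1-Csrp3-rich, 674 in Mt3-Trim63-rich, 325 in slow-rich and 424 in QSC fibre barcodes. Pvalb stood at 14251 CPM, against 9447, 10620, 4819 and 9339 in the same order. Pgam2 was at 5495 CPM, against 2611, 2598, 3966 and 5348. Ankrd23 was at 4564 CPM, against 1596, 2243, 2783 and 4331. Thus Myh4 and Pvalb were lowest in the slow-rich class, whereas Pgam2 and Ankrd23 were lower in the Ankrd1-Csrp3-rich and Mt3-Trim63-rich classes than in it. Compared with QSC fibre barcodes, Myh4 was higher by a log2 ratio of 1.29 (0.98 to 1.61) and Pvalb by 0.61 (0.54 to 0.68), while the intervals of Pgam2, 0.04 (-0.05 to 0.13), and Ankrd23, 0.08 (-0.02 to 0.17), included 0. Barcodes under the fibre limit with at least 1% of UMIs from immune genes (immune-like, 93 barcodes) are given as a background. In them Myh4 was at 74.1, Pvalb at 1836, Pgam2 at 723 and Ankrd23 at 389 CPM. The part of free RNA in the levels of this background was not tested.

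**Figure D1:**
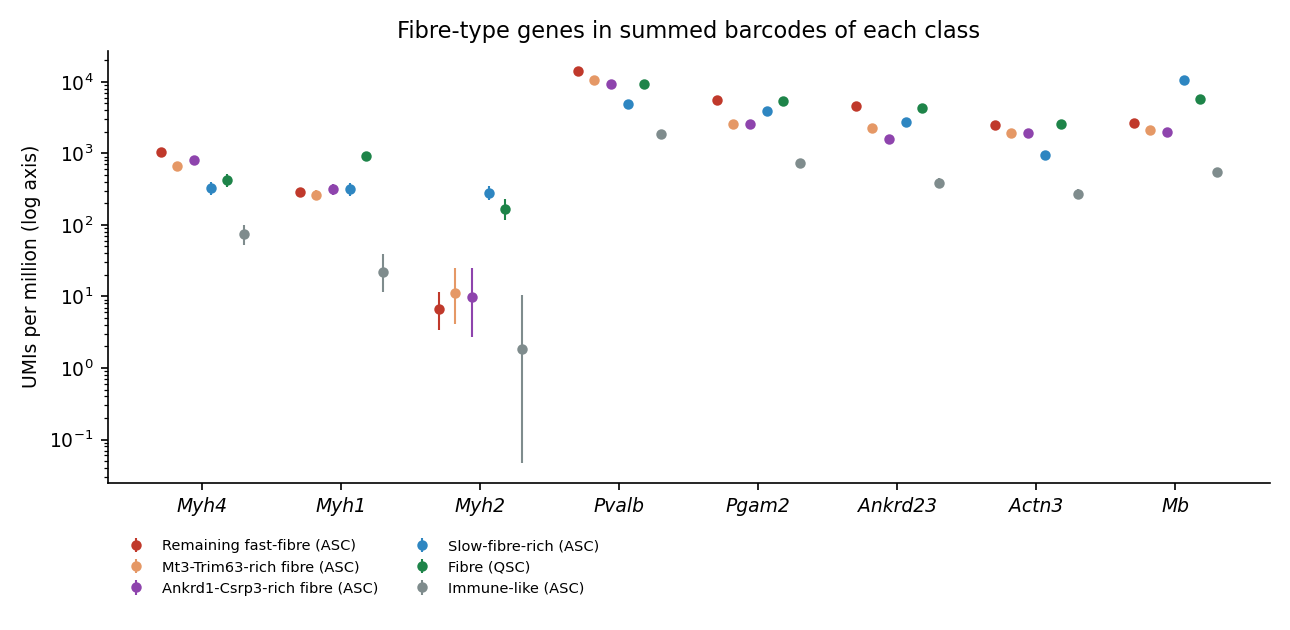
Summed CPM (log axis) of 8 fibre-type genes in the 4 ASC fibre classes, the QSC fibre barcodes and immune-like ASC barcodes, with bars for the 95% Poisson interval (counting error). The remaining fast-fibre class is highest for Myh4, Pvalb, Pgam2 and Ankrd23, and Myh2 is at 6.65 CPM there against 168 in QSC fibre barcodes.

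Markers of satellite cells, the labelled cell type, took a small share of UMIs in these barcodes. The 6 activated satellite cell markers, described further below, took 0.0275%, against 0.158% in the other kept ASC and 0.00140% in QSC fibre barcodes. Pax7, the defining gene of satellite cells, had 5 UMIs in the 519 barcodes, and the 8 satellite cell markers together took 0.00582% of UMIs, against 0.107% in the other kept ASC barcodes. Of 12 immune markers all had a UMI, their sum reached 0.0357% of UMIs (2.67% in immune-like and 0.0135% in QSC fibre barcodes), and 3 barcodes exceeded 1%. Of the 6 fibroblast markers 2 were at 0, of the 6 endothelial markers 3, of the 6 smooth muscle markers 4 and of the 5 Schwann cell markers 4, with Pdgfra, Lum, Pecam1, Cdh5 and Myh11 among them. The 5 red blood cell markers together took 0.00731% of UMIs. No barcode exceeded 1% for any of these lists except the immune one.

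The genes with the most UMIs were those of the fast sarcomere. The 20 highest genes took 28.3% of all UMIs, led by Acta1, the skeletal actin, at 42242 CPM, the fast regulatory light chain Mylpf at 29176, the fast troponin C Tnnc2 at 27978 and the alkali light chain Myl1 at 23107. Aldoa (14033 CPM), Gapdh (11703), Pgam2 and Eno3 (5060) of glycolysis and Slc25a4 (5623), the ADP/ATP carrier of mitochondria, were also in this group. These are 3′ tag counts, which are not divided by transcript length because each transcript is counted at its end. The 10 fibre genes used for the choice took 14.7% of UMIs.

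The barcodes were next compared by the myosin heavy chain that led in each. Fast fibres of mouse limb muscle carry Myh4 (type IIB), Myh1 (IIX) or Myh2 (IIA) and slow fibres Myh7. Because depth differed, each barcode was thinned to 1000 UMIs, which kept 498 of the 519 and all 104 QSC fibre barcodes. Myh4 led in 247 of the 498 (49.6%, 45.1 to 54.1), Myh1 in 62 (12.4%, 9.68 to 15.7) and Myh2 in 2, with 12 ties and 175 barcodes (35.1%) without a UMI of the 4 genes. Myh7 led in 0 of 498, where the floor of 3 counts is a share of 0.602% and the exact 95% interval reaches 0.738%. In QSC fibre barcodes the order was the other way round, with Myh1 in 42 (40.4%, 30.87 to 50.46), Myh4 in 23 (22.1%, 14.6 to 31.3) and Myh2 in 7 (6.73%). The remaining barcodes and the QSC fibre barcodes thus differed in the balance of Myh4 and Myh1. The 3 removals had been applied to ASC alone, and in the other ASC fibre barcodes Myh4 led in 29.4% and Myh1 in 15.2%. The intervals cover counting only, since barcodes are not replicates, and the difference was not tested.

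The same balance was seen at a lower level in barcodes that are not of fibres. Myh4 was detected in 7.53% and Myh1 in 2.15% of immune-like ASC barcodes, and in 7.89% and 2.78% of the other 431 kept ASC barcodes, but in 4.70% and 8.66% of the other 404 kept QSC barcodes. Both genes together were found in 26 remaining fast-fibre barcodes (5.22%). Among the other ASC fibre classes, Myh4 led in 32.8% of Ankrd1-Csrp3-rich, 32.4% of Mt3-Trim63-rich and 13.4% of slow-rich barcodes, and Myh2 led in 15.5% of slow-rich barcodes, against 0.541% of Mt3-Trim63-rich and 0 of 119 Ankrd1-Csrp3-rich barcodes. Myh4 and Myh1 belong to the 10 fibre genes of the rule, so that low values of both could keep a barcode out. With all UMIs used, Myh4 was found in 71.7% and Myh1 in 31.8% of the 519 barcodes. Myh1, Myh2 and Myh4 are close paralogues next to one another on chromosome 11, and reads may be split between them, so their counts are less certain.

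**Figure D2:**
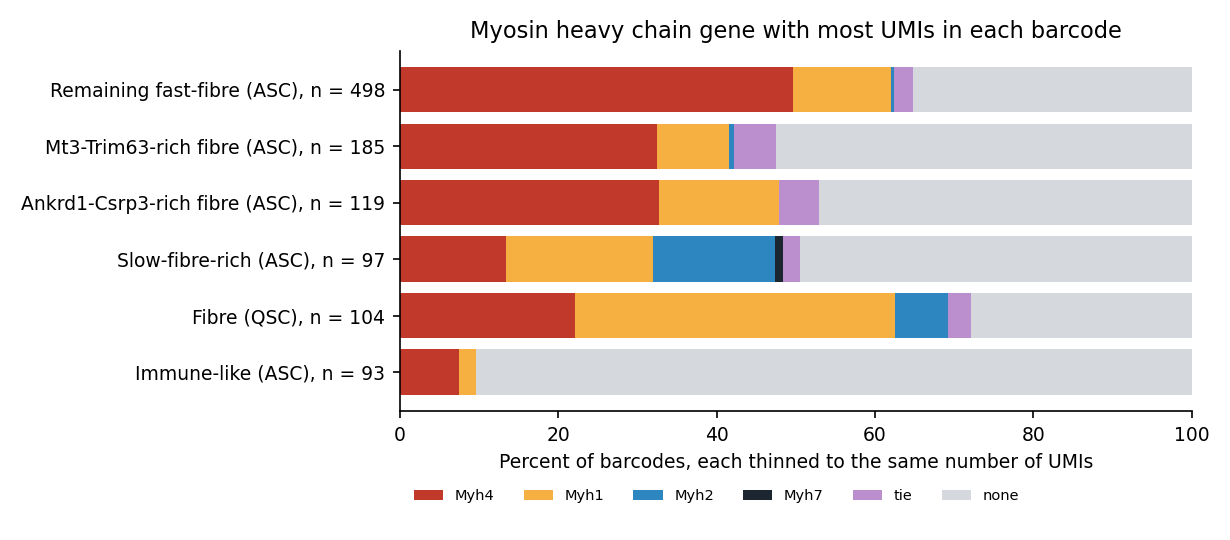
Percent of barcodes in which Myh4, Myh1, Myh2 or Myh7 had the most UMIs after each barcode was thinned to 1000 UMIs, by class. Myh4 leads in 49.6% of the remaining fast-fibre barcodes and Myh1 in 40.4% of the QSC fibre barcodes.

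In summed levels, Myh1 was at 287 CPM in the remaining barcodes and 904 in QSC fibre barcodes, a log2 ratio of -1.66 (-1.90 to -1.41), and at -1.93 without the deepest barcode. Myh2 was at 6.65 CPM (12 UMIs) against 168 (36 UMIs), a log2 ratio of -4.66 (-5.74 to -3.68). The removal of slow-rich barcodes had been applied to ASC alone, and against QSC fibre barcodes that lay below the 3 dropped shares (85 of 104) the Myh2 ratio was -2.18. Myh7 had 0 UMIs in both classes. Myh3, the embryonic heavy chain, had 0 UMIs and Myh8, the neonatal one, 1 UMI in the remaining barcodes, and the 10 genes of regenerating muscle together took 0.0125% of UMIs.

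Barcodes led by Myh1 and by Myh4 differed in further genes that the myosin assignment did not use. The 62 Myh1-led barcodes (255364 UMIs) had 7100 CPM of Mb, the oxygen store myoglobin, against 1156 in the 247 Myh4-led barcodes (906327 UMIs), a log2 ratio of 2.62. The deepest barcode was 1 of the 62 and held 29.8% of their UMIs, and without it Mb was at 6939 CPM (2.59). Fhl1, a LIM protein of the sarcomere, was at 4966 against 1545 CPM (1.68, and 1.80 without the deepest barcode) and Csrp3, a Z-disc protein and a gene of the rule, at 1745 against 624 (1.48 and 1.87). Ckmt2, the mitochondrial creatine kinase of muscle, was at 1024 against 253 CPM (2.02), but at 441 (0.80) without that barcode. Pvalb was at 8100 against 16849 CPM (-1.06 with and without it), Mt1 at 2177 against 5003 (-1.20 and -1.10) and Gpt2, a mitochondrial alanine transaminase, had ratios of -1.64 and -1.45. Myh1-led barcodes therefore had more myoglobin and less parvalbumin, while Acta1 (0.02 and 0.04) and Pgam2 (0.04 and -0.22) differed little. Pvalb and Acta1 are genes of the rule as well. Of 1352 genes considered, 32 were at least 2-fold higher and 22 at least 2-fold lower in the Myh1-led group, and 29 and 29 of 1374 without the deepest barcode. Median depth was 2386 UMIs in it and 3126 in the Myh4-led group. Over the whole class, the deepest barcode held 11.8% of the Mb UMIs, and Mb was at 2463 CPM without it instead of 2674.

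The spread among the remaining barcodes was wide for some of the same genes. At 1000 UMIs each, 1252 genes had a mean of at least 0.1, their variance over mean, which is 1 for counting alone, had a median of 1.06, and 40 genes reached 2. Mt1 (5.59), Mb (5.45), Mt2 (5.37), Cryab (3.85), Fhl1 (3.72) and Pvalb (3.59) were spread over many barcodes, whereas Malat1 (144), Cxcl2 (54.6) and Nfkbia (12.1) owed most of their variance to few. Mb ran from 0 through a median of 1 to 20 UMIs per barcode, with 160 barcodes at 0. Pvalb ran from 0 through 13 to 40, with 1 barcode at 0, and Myh4 from 0 through 1 to 10. Across the 498 barcodes, Pvalb and Mb were related inversely (Pearson r -0.46, Spearman rho -0.49), and Mb and the summed nuclear genes of the respiratory chain positively (0.65 and 0.60). Barcodes are not replicates and all came from 1 library, so that these values are a description. The pairs were picked after the values were seen, and Pvalb and Myh4 are genes of the rule.

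**Figure D3:**
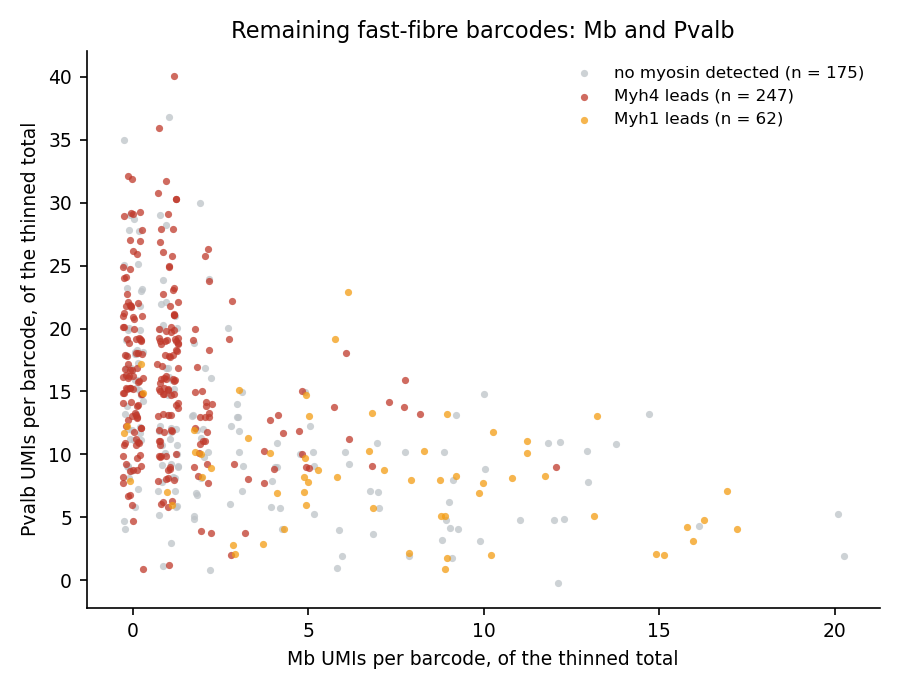
Mb and Pvalb UMIs of each remaining fast-fibre barcode at 1000 UMIs, coloured by leading myosin and shifted by a small random amount so that points do not hide each other; the 12 ties and 2 Myh2-led barcodes are not drawn, and grey points have no UMI of the 4 myosin genes. Myh4-led barcodes gather at low Mb and high Pvalb, and barcodes with high Mb are mostly grey or Myh1-led.

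To describe this axis, 105 barcodes with at least 5 Mb UMIs per 1000 were set against the 160 with 0, a division made after the values were seen. All 27 nuclear respiratory chain genes considered were higher in the Mb-rich group, with a median log2 ratio of 0.86, and so were the 7 genes of fatty acid use (0.88), whereas 1343 genes in all had a median of -0.03. Glycolysis had a median of -0.02 over 17 genes, and calcium handling of -0.42 over 13. Myh1 was at 878 against 43.9 CPM (4.32), Fhl1 at 5261 against 971 (2.44) and Cox7a1, the muscle form of a cytochrome oxidase subunit, was higher by 1.20. Myh4 was at 398 against 1357 CPM (-1.77) and Pvalb at 8636 against 17471 (-1.02). Without the deepest barcode the medians were 0.75 for the respiratory chain, 0.54 for fatty acid use and -0.21 for glycolysis, with 27 of 27 and 7 of 7 genes above 0 in the first 2, and the ratios of Myh1, Myh4 and Pvalb were 4.11, -2.25 and -1.001. The fast-fibre barcodes thus held a range from Myh4 with parvalbumin to Myh1 with myoglobin and oxidative genes. Myh4, Myh1 and Pvalb are among the fibre genes that chose the barcodes, and slow-rich barcodes had been removed, so the range depends in part on the choice. The share of the 10 fibre genes was a median of 12.8% in the Mb-rich and 15.2% in the Mb-free group, and the median depths were 2782 and 2993 UMIs.

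The remaining barcodes of injured muscle were then compared with the fibre barcodes of QSC to ask how fibre transcripts differed between the libraries. Of 1367 genes with at least 100 CPM in the higher class and at least 20 UMIs together, 199 (14.6%) were at least 2-fold higher and 95 (6.95%) at least 2-fold lower in the remaining barcodes, and the median log2 ratio was 0.05. These 2 shares are the background for the counts of each list that follow. Among the gene lists other than those of the rule with at least 3 genes considered, metallothioneins and small heat shock proteins had the highest medians. These lists also hold Mt3 and Hspb1, which are genes of the rule. The median of the 5 immediate early genes considered was -1.18. The lowest ratios of single genes outside the rule were those of Arrdc2, Ddit4, Myh2 and Pdk4. Several genes of the Ankrd1-Csrp3 and Mt3-Trim63 lists were higher than in QSC although the richest barcodes had been removed, 5 of 5 considered in the first list and 4 of 5 in the second by at least 2-fold, with Hspb1 at 2755 against 354 CPM (2.96), Mustn1 at 3727 against 504 (2.89), Ankrd1 at 556 against 55.9 (3.31) and Rrad at 220 against 23.3 (3.24). With the minimum raised to 1000 genes and the rule applied anew, the same numbers being set aside, 60 remaining and 10 QSC fibre barcodes were left, and Rrad turned to -1.84 and Csrp3, at 1.04 otherwise, to -0.57. Trim63 was below 0, and the 2 genes of the slow list considered, Myl3 (-4.66) and Myoz2 (-3.27), were lower, but slow-rich barcodes had been removed from ASC alone, and Myoz2 was at 0.68 against QSC fibre barcodes below the 3 dropped shares. Mt3 was at 258 CPM and had 0 UMIs in QSC fibre barcodes, at least 18.5-fold higher against the floor of 3 counts (14.0 CPM).

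**Figure D4:**
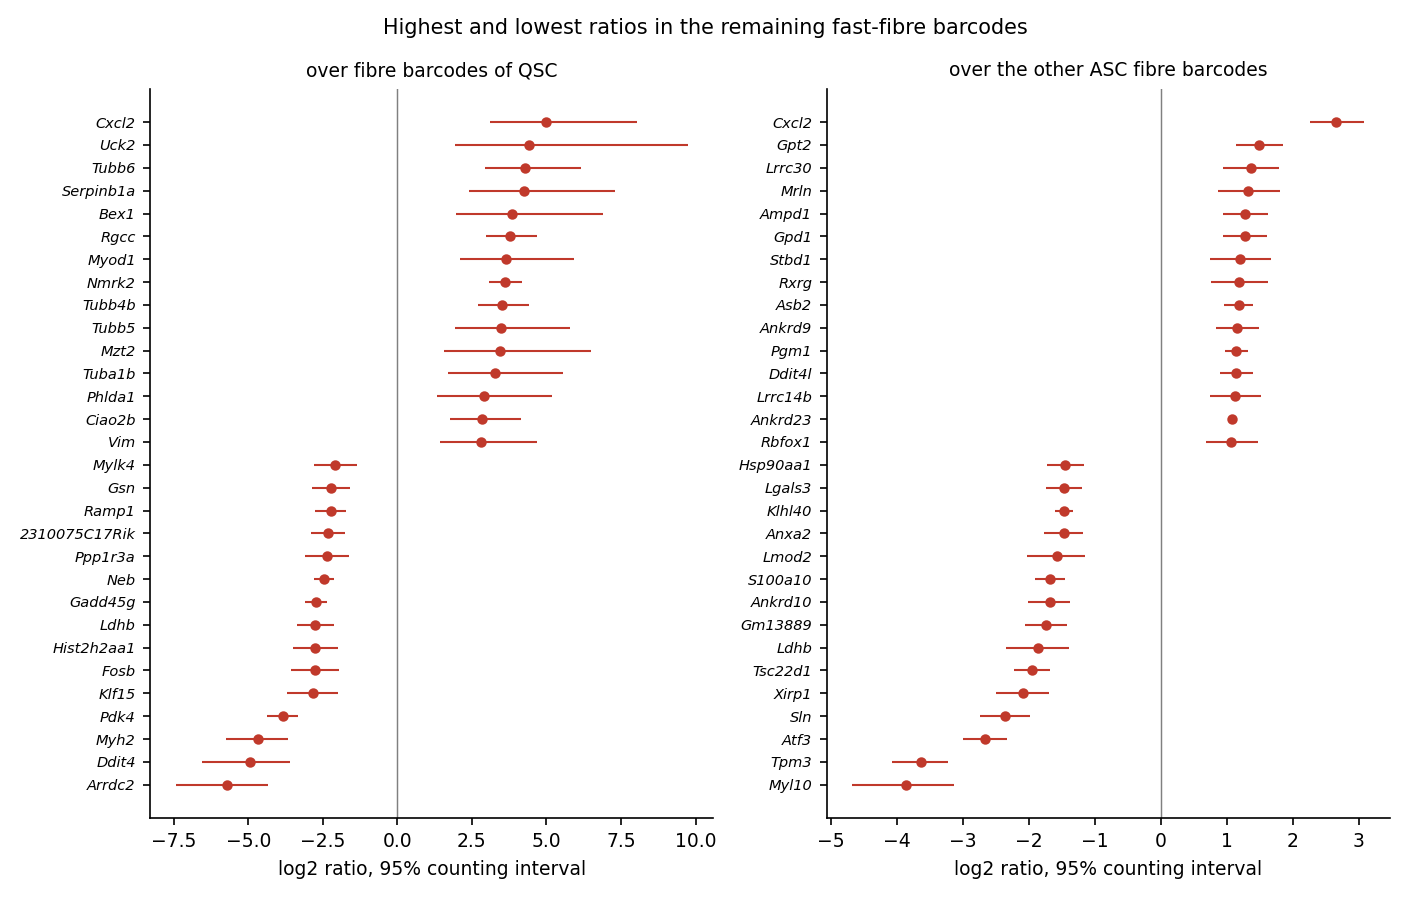
The 15 highest and 15 lowest log2 ratios of summed CPM in the remaining fast-fibre barcodes, over QSC fibre barcodes (left) and over the other ASC fibre barcodes (right), for genes outside the rule, with 95% counting intervals. Cxcl2 leads both panels, and its ratios rest on few barcodes.

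Among proteins that keep others folded, the small heat shock proteins stood out. Of 7 small heat shock protein genes, 5 were at least 2-fold higher and 0 lower, with a median of 1.97. Hspb1, a gene of the rule, is among the higher ones. Cryab, which protects desmin and the sarcomere, was at 9613 CPM against 2056 in QSC fibre barcodes, a log2 ratio of 2.23 (2.09 to 2.36). At 1000 UMIs it ran from 0 through a median of 9 to 54 UMIs per barcode, against 0, 1 and 24 in QSC fibre barcodes. Hspb7 was at 2250 against 573 CPM (1.97), Hspb8, which acts in assisted autophagy, at 962 against 219 (2.13) and Hspb6 at 3494 against 1725 (1.02). Cryab was in turn far higher in the Ankrd1-Csrp3-rich class, at 44437 CPM, so that the remaining barcodes lay between it and QSC. Cryab overlaps Hspb2 on the other strand. Of 4 cytosolic and endoplasmic chaperones considered, 0 reached 2-fold, with a median of 0.58.

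All 3 metallothionein genes considered, whose products bind zinc and copper, were at least 2-fold higher, Mt3 being a gene of the rule. Mt1 was at 4314 against 1291 CPM (1.74, 1.57 to 1.92) and Mt2 at 3492 against 634 (2.46, 2.22 to 2.72). Mt1 had a median of 3 UMIs per 1000 and a highest value of 29, against 1 and 6 in QSC fibre barcodes. Outside fibre barcodes the libraries differed in the opposite direction, with Mt1 at 2706 CPM in the other kept ASC and 11999 in the other kept QSC barcodes. Among the ASC fibre classes Mt1 was lowest in slow-rich barcodes, at 2054 CPM.

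Genes of the fast sarcomere had a median nearer 0 than those of small heat shock proteins and metallothioneins. Of 20 considered, 1 was at least 2-fold higher (Myh4) and 4 lower (Tcap, Ttn, Neb and Myh1), with a median of -0.26. The lower share exceeded the 6.95% of all genes considered. Myh4, Myh1, Acta1 and Mylpf are fibre genes of the rule that chose the barcodes in both libraries, so their levels describe the choice. Tcap, the telethonin that caps titin at the Z-disc, was at 3635 against 11637 CPM (-1.68, -1.75 to -1.61), and ran from 0 through 3 to 21 UMIs per 1000 against 2, 11.5 and 38 in QSC fibre barcodes. Neb, the giant ruler of the thin filament, was at 108 against 597 CPM (-2.47), and Ttn, the titin spring, at 60.9 against 159 (-1.38). Acta1 was at 42242 against 54722 CPM (-0.37), and Mylpf at 29176 against 20402 (0.52). Actn3, the fast α-actinin, differed little, at 2509 against 2569 CPM. Of 11 genes of the Z-disc and costamere, 5 were at least 2-fold higher and 0 lower, among them Pdlim3 (1.86), Ankrd2 (1.16) and Smpx (1.01), with Cryab and Csrp3 as the others.

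Calcium handling was mixed. Of 13 genes, 2 were at least 2-fold higher and 4 lower, with a median of -0.01. The higher share was close to the 14.6% of all genes considered. The sarcoplasmic calcium pump Atp2a1, a gene of the rule, was at 2117 against 4285 CPM (-1.02), the calcium store protein Casq1 at 141 against 340 (-1.27), the triad protein Trdn at 452 against 1315 (-1.54) and Mrln, a small inhibitor of the pump, at 103 against 270 (-1.40, but 0.47 with at least 1000 genes). Cacng1, a subunit of the voltage-gated calcium channel, was higher by 1.47. Parts of the release and storage machinery were therefore lower beside the higher Pvalb.

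Genes of energy metabolism were mostly lower or near the level of QSC fibre barcodes. Myh1, which went with Mb and oxidative genes among the remaining barcodes, led in 12.4% of them and in 40.4% of QSC fibre barcodes. The part of this difference in the ratios was not tested. Of 27 nuclear respiratory chain genes 26 lay below 0, but 0 reached 2-fold, and the median was -0.54. Slc25a4 was at 5623 against 10998 CPM (-0.97), and Mb at 2674 against 5823 (-1.12). The Mb ratio was less than 2-fold, at -0.78, against QSC fibre barcodes below the 3 dropped shares and, at -0.92, with the 1% mitochondrial limit of the study. Of 8 genes of fatty acid use 2 were at least 2-fold lower, Fabp3, the fatty acid carrier of muscle, by -1.41 and Pdk4, the kinase that shuts pyruvate dehydrogenase in fasting, at 30 against 429 CPM (-3.84, -4.35 to -3.34). Pdk4 was found in 3.41% of the remaining barcodes at 1000 UMIs and in 31.7% of QSC fibre barcodes. Of 17 glycolysis and glycogen genes 0 were 2-fold higher and 1 lower (Phkg1, -1.31), with a median of 0.21. Gapdh was at 11703 against 8001 CPM (0.55) and Aldoa at 14033 against 18873 (-0.43). Of 5 phosphagen and purine nucleotide genes, Ampd1, the muscle AMP deaminase, was at least 2-fold higher (1.41), and the median was -0.27. Nmrk2, a kinase of muscle that acts on nicotinamide riboside on the way to NAD, was at 1577 against 131 CPM (3.59, 3.06 to 4.19). It was found in 67.1% of the remaining barcodes at 1000 UMIs, 7.69% of QSC fibre barcodes and 26.9% of immune-like barcodes.

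The 15 highest ratios over QSC included 4 tubulin genes, which were not a list of their own. Tubb6 was at 364 against 18.6 CPM (4.29), Tubb4b at 684 against 60.6 (3.50), Tubb5 at 157 against 14.0 (3.49) and Tuba1b at 135 against 14.0 (3.27). Tubb5 and Tuba1b rested on 3 QSC UMIs each, and they were higher still in the other kept ASC barcodes, at 1204 and 1562 CPM. Tuba4a, the main α-tubulin among those named, was at 2257 against 1021 CPM (1.14), and at 309 CPM in the other kept ASC barcodes. Rgcc was at 823 against 60.6 CPM (3.76), and Serpinb1a (4.26), Bex1 (3.84) and Uck2 (4.43) rested on 2, 2 and 1 QSC UMIs. Cxcl2, a chemokine that attracts neutrophils, was at 295 against 9.32 CPM (4.98). However, 84.4% of its 532 UMIs lay in 5 barcodes, without which it was at 46.7 CPM, and it was at 10364 CPM in immune-like barcodes.

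Myod1 and Myog, transcription factors of the muscle lineage, were also detected. Myod1 had 318 UMIs in 193 of the 519 barcodes, 176 CPM, against 3 UMIs and 14.0 CPM in QSC fibre barcodes (3.65, 2.09 to 5.94), and no barcode held more than 2.20% of its UMIs. At 1000 UMIs it was found in 16.3% of the remaining barcodes and in 0 of 93 immune-like barcodes, where the floor of 3 counts is a share of 3.23% and the exact 95% interval reaches 3.89%. It was at 173 CPM in Ankrd1-Csrp3-rich, 155 in Mt3-Trim63-rich, 112 in slow-rich and 412 in the other kept ASC barcodes. Myog was at 89.7 CPM, at least 6.42-fold higher than the floor in QSC fibre barcodes (0 UMIs), and at 938 CPM in the other kept ASC barcodes. The 6 activated satellite cell markers, which include both genes, all had UMIs, took 0.0275% of UMIs (0.00140% in QSC fibre and 0.158% in the other kept ASC barcodes) and ran from 0 to 0.442% per barcode, with 260 of 519 at 0. The part of satellite cell RNA in these values was not tested. Myf6, a factor of mature fibres and a gene of the rule, was at 471 against 182 CPM (1.37). Of 6 such factors considered 2 were at least 2-fold higher and 1 lower, with a median of -0.21 that ran from -0.26 to 1.32 over the alternatives.

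Genes of the translation machinery and of polyamine metabolism, the subject of the study, were examined in these barcodes as well. All 30 ribosomal protein genes considered lay above 0, with a median of 0.62, and 7 were at least 2-fold higher. Rplp0 was at 3733 against 1790 CPM (1.06), Rpl3 at 563 against 107 (2.39) and Rpl5 at 746 against 168 (2.15). The other kept barcodes also differed in this direction between the libraries, with Rplp0 at 7206 CPM in ASC and 3536 in QSC. Of 13 translation factors 2 were at least 2-fold higher, Eef1a1 (1.56) and Eef1b2 (1.37), a share close to the 14.6% of all genes considered, with a median of 0.17. Eif5a, the elongation factor that carries hypusine made from spermidine, was at 738 against 420 CPM (0.82, 0.51 to 1.14), and was found in 53.8% of the barcodes at 1000 UMIs, 28.8% of QSC fibre and 47.3% of immune-like barcodes. Of 6 polyamine genes 2 were at least 2-fold higher, with a median of 0.43, which became -0.03 with the genes of the rule left out. No gene of the rule is one of polyamine metabolism, but this setting rescales all levels and can change which genes are considered. Odc1, which makes putrescine, was at 275 against 60.6 CPM (2.18, 1.39 to 3.10) and was found in 25.1% of the barcodes, 4.81% of QSC fibre and 4.30% of immune-like barcodes. Azin1, which shields Odc1 from its antizyme, was at 111 against 18.6 CPM (2.57) on 4 QSC UMIs. Sms was higher by 0.86, Amd1 lower by -0.52 and Oaz1 near 0 (-0.01). Within ASC, Odc1 was higher in Mt3-Trim63-rich (455 CPM) and Ankrd1-Csrp3-rich (393 CPM) than in the remaining barcodes.

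Protein breakdown genes did not form 1 pattern. Of 17 proteasome genes 4 were at least 2-fold higher and 0 lower, with a median of 0.72, including Psmd11 (1.48), Psmd8 (1.31) and Psmb5 (1.15). Of 12 genes of atrophy ligases and autophagy 1 was higher (Gabarapl2, of the rule) and 4 lower, with a median of -0.40. The Mt3-Trim63-rich barcodes had been removed from ASC alone, so this list was not compared on equal terms. Fbxo32, the ubiquitin ligase atrogin-1, was at 76.4 against 168 CPM (-1.13), Klf15 at 14.96 against 107 (-2.84), Cebpd at 90.8 against 219 (-1.27) and Ddit4 at 3.32 (6 UMIs) against 103 (-4.95). Trim63, the ligase MuRF1 and a gene of the rule, was at 398 against 541 CPM (-0.44). Arrdc2 had the lowest ratio of the genes named, at 2.77 CPM (5 UMIs) against 145 (-5.71).

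Immediate early genes were lower, 4 of 5 by at least 2-fold, with a median of -1.18. Fos was at 72.6 against 261 CPM (-1.85), Junb at 117 against 266 (-1.18), Jun at 130 against 270 (-1.05) and Fosb at 17.2 against 117 (-2.76). These genes were much higher in the other kept QSC barcodes, with Fos at 8180 CPM against 898 in the other kept ASC barcodes, and the part of free RNA in the difference was not tested. Gadd45g was at 77.0 against 513 CPM (-2.74), with 245 CPM in the other kept QSC barcodes. Of 11 antioxidant and iron genes 2 were at least 2-fold higher, Txn1 (1.82) and Sod1 (1.36), and 1 lower (Mb, with the same exceptions), with a median of -0.08. These counts lay near the shares of all genes considered, 14.6% and 6.95%.

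**Figure D5:**
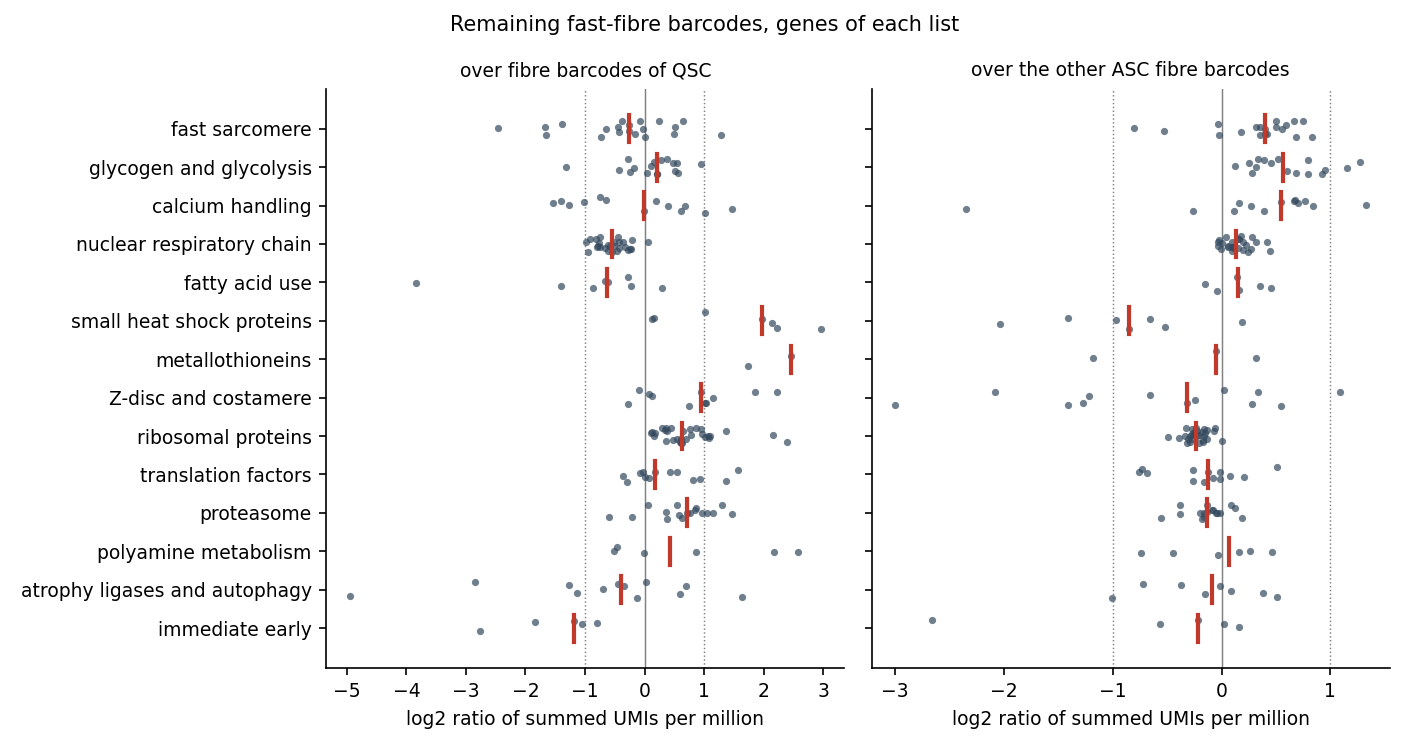
Log2 ratios of summed CPM in the remaining fast-fibre barcodes over QSC fibre barcodes (left) and over the other ASC fibre barcodes (right), with 1 point per gene considered and a red bar at the median of each list; dotted lines mark 2-fold, and genes at 0 in a class, such as Mt3 in QSC, count in the median but have no point. Small heat shock proteins and metallothioneins lie at 1.97 and 2.46 and the respiratory chain at -0.54 over QSC.

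Compared with the other 420 ASC fibre barcodes, which the rule had removed for their values, the remaining barcodes had 18 genes (1.38%) at least 2-fold higher and 53 (4.05%) at least 2-fold lower of 1309 considered, with a median of 0.03. The comparison describes what the choice left behind. All 16 genes of glycolysis and glycogen lay above 0, with a median of 0.56 and 2 at 2-fold, Pgm1 (614 against 277 CPM, 1.15) and Gpd1 (189 against 78.2, 1.27). Fast sarcomere genes had a median of 0.40, phosphagen and purine nucleotide genes 0.65, calcium handling 0.55 and the respiratory chain 0.13. Gpt2 was at 193 against 69.1 CPM (1.49), Ampd1 at 186 against 76.5 (1.28), Asb2, a ubiquitin ligase subunit of muscle, at 419 against 185 (1.18) and Rxrg, a retinoid receptor, at 114 against 49.9 (1.19). Against the slow-rich class alone the order differed for oxidative genes, with 24 of 26 respiratory chain genes below 0 (median -0.33) and 7 of 7 genes of fatty acid use (-0.37).

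Genes that were lower in this comparison followed the slow and the stress lists without being in them. Tpm3, the slow tropomyosin, was at 29.4 against 364 CPM (-3.63), Sln, the inhibitor of the calcium pump, at 41.6 against 212 (-2.35) and Myl10 at 9.42 against 137 (-3.86), each with its highest level in slow-rich barcodes. With a fibre share of at least 10%, Myl10 turned to 0.12. Atf3, a stress-induced transcription factor, was at 52.1 against 329 CPM (-2.66) and Xirp1, of the costamere, at 40.99 against 174 (-2.08), both highest in the Ankrd1-Csrp3-rich class. Small heat shock proteins had a median of -0.85, chaperones of -0.67 and the Z-disc and costamere of -0.32. Ribosomal proteins (-0.23, 29 of 30 below 0), translation factors (-0.13) and proteasome genes (-0.13) were close to the other classes, and Nmrk2 was nearly the same, at 1577 against 1591 CPM.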

How the data were processed

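Sorted satellite cells of 2 libraries, QSC and ASC, 1 per group, were profiled with 10x Genomics 3′ v2 chemistry. The authors deposited UMI counts per gene and barcode, not normalized, made with Cell Ranger (6.0.2 in the file headers, 7.1.0 in the submitters' processing notes) on mm10, and the notes also name Seurat 4.1.0 and R 4.1.2. Whether barcodes were filtered or doublets removed before deposit is not given in the sources used here, and none were removed here. The files hold 1650 ASC and 766 QSC barcodes.

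Kept barcodes had 500 or more genes and no more than 10% mitochondrial UMIs (13 genes). The study's mitochondrial limit of 1% was an alternative. UMIs were summed per class and scaled to CPM with exact Poisson 95% intervals. Ratios had exact conditional binomial intervals and shares exact Clopper-Pearson intervals. Depth ran from 825 to 76126 UMIs per remaining barcode, and summed levels carry a floor of 3 counts, 1.66 CPM in the remaining and 14.0 CPM in the QSC fibre barcodes. No p-value was computed, since barcodes are not replicates. A gene was considered with at least 100 CPM in the higher class and 20 UMIs together, and called at 2-fold. Mitochondrial genes were left out of the calls. Named were the genes of the rule and the markers, up to 6 genes per list by level, the 15 highest and lowest ratios of each comparison and the 20 highest genes. Genes named from lists only because they passed 2-fold, and those given for the Myh1-led and Mb-rich groups, were chosen after their values were seen. The barcodes and gene lists were chosen with earlier results of these data known. The values of 1 gene that the lists hold are not reported here. Identifiers were matched to GENCODE M21 (32235 of 32285, 99.8%). Python 3.11.15, numpy 2.4.6, scipy 1.17.1, pandas 2.3.3 and matplotlib 3.10.9 were used.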

Additional observations from a re-analysis of the deposited data

How the results depend on the processing

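No paired analysis was possible because each group had 1 library. Over QSC fibre barcodes, the 199 higher and 95 lower genes became 98 and 53 with a minimum of 200 CPM, which left fewer genes to count, and 161 were lower with at least 1000 detected genes and the rule applied anew, which again set aside 420 barcodes and left 60 remaining and 10 QSC barcodes. Over the other ASC fibre barcodes, the 18 higher genes became 10 with a fibre share of at least 10% and 7 with a minimum of 200 CPM. The share led by Myh4 was 66.7% with at least 1000 genes and 63.8% without thinning, and the share led by Myh1 was 6.67% and 19.5%. With at least 1000 genes the log2 ratios over QSC of Csrp3 (-0.57), Rrad (-1.84) and Mrln (0.47) changed sign. Myoz2 changed sign against QSC barcodes below the dropped shares (0.68), and with a fibre share of at least 10% so did Tnnc1 (0.0082) and Myl10 (0.12) over the other ASC fibre barcodes. Csrp3 and Rrad belong to the lists by which 420 barcodes were again set aside, and Myoz2 and Tnnc1 belong to the slow list. The cause of these changes was not tested. Of 99 named genes at 2-fold over QSC, 95 kept their sign and 64 stayed past 2-fold in all alternatives that gave a value, and of 54 over the other ASC fibre barcodes 52 and 25 did. List medians near 0 were less stable: calcium handling over QSC ran from -1.02 to 0.25, fast sarcomere from -0.38 to 0.03, polyamine metabolism from -0.03 to 0.56, myogenic and fibre transcription factors from -0.26 to 1.32, and phosphagen and purine nucleotides from -0.34 to 0.14. Those of small heat shock proteins (1.20 to 2.05), metallothioneins (1.47 to 2.51) and the respiratory chain (-0.62 to -0.44) kept their sign. Leaving out the deepest barcode, leaving out barcodes with 1% immune UMIs, and the alternatives for the leading myosin were chosen after seeing the data.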

Other observations

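Malat1, a nuclear noncoding RNA, was at 575 CPM in the remaining fast-fibre barcodes, against 2247 in QSC fibre barcodes and 63720 in the other kept QSC barcodes. Of its 1038 UMIs, 328 (31.6%) came from 1 barcode of 1378 UMIs, and 53.9% from 5 barcodes, without which it was at 269 CPM. In QSC fibre barcodes, 263 of 482 Malat1 UMIs (54.6%) came from 1 barcode of 1863 UMIs, without which it was at 1030 CPM. The log2 ratio over QSC was -1.97, and -0.43 with the 1% mitochondrial limit and -1.02 against QSC fibre barcodes below the 3 dropped shares. Lyz2, a gene of macrophages and neutrophils, had 34.4% of its 195 UMIs in 1 barcode of 11330 UMIs.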
